A study of Homo sapiens with 6 samples.

Results

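Interferon response genes were examined in MDA-MB-468 cells as a list of 55 genes out of 31122 in the deposited count table. The members were taken from a list of names, as receptors, transcription factors, nucleic acid sensors and interferon-stimulated genes, and all 55 had a row in the table. Of these, 53 had enough counts to be tested, against 17420 genes in the whole table. MDA-MB-468 is an established human cell line from a triple-negative, basal-like breast carcinoma. Polyadenylated RNA was sequenced from 6 cultures, and no group was labelled with an interferon or other treatment. In the parental (WT) group were 3 libraries from wells of 1 6-well plate. The GPR52 KO group held 3 libraries from populations edited with CRISPR-Cas9 and the guide sgRNA1 against the orphan receptor gene GPR52. The latter are titled 11, 12 and OG and are called KO-labelled 1, 2 and 3 here. Whether each is 1 clone or a pool, and how the 3 relate, is not given in the sources used here, so p-values measure the spread between these samples, part of which may be technical.

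Type I interferons bind the receptor pair IFNAR1 and IFNAR2, and interferon gamma binds IFNGR1 and IFNGR2. Janus kinases on these receptors phosphorylate STAT proteins. After type I interferon, a complex that includes STAT2 and IRF9 binds interferon-stimulated response elements. After interferon gamma, STAT dimers bind gamma-activated sequences and induce IRF1, which drives a further set of genes. Epithelial cells also make a low, tonic level of many of these transcripts without added interferon, and cancer cell lines differ widely in that level.

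Total counts were 25637794 to 31692454 per library, which makes 1 count worth 0.0321 to 0.0397 CPM, a count scaled to library size. GPR52 itself had 9, 1 and 0 counts in the parental-labelled and 645, 694 and 724 in the KO-labelled libraries, a transcript gain that goes against the label as loss of expression, so the groups are called by their labels throughout. Every rise and fall below is KO-labelled relative to parental-labelled and would turn if the labels had been exchanged, which was not tested. All 8 markers of epithelial and basal breast cells were present, with a summed level of 11586 to 11821 CPM in parental-labelled and 10508 to 14889 CPM in KO-labelled libraries. Of 10 leukocyte markers 7 had a row, and 5 of these were under 1 CPM in every library, the defining marker PTPRC having at most 9 counts. The sum of the leukocyte list was nevertheless 37.4 to 47.8 CPM against 8.03 to 15.9 CPM, nearly all of it CD14 and CSF1R. Of 8 fibroblast and endothelial markers 6 had a row, with sums of 4.37 to 4.85 CPM against 1.91 to 5.14 CPM. In bulk RNA, fewer cells of a type and less RNA per cell cannot be told apart, and the part of these markers in the results was not tested.

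Promoter sequences are shown first, because members that rose, fell or were not called share the same element. The core of the interferon-stimulated response element, GAAA followed after any 2 bases by GAAA, was searched on both strands, overlapping matches included, in RefSeq windows of 250 bases before to 50 after each start (GRCh38.p14). Windows were given for 41 of the 55 members, and 26 of the 41 genes (63.4%) held at least 1 match, compared with 4.38% of all 27305 genes and 3.57% of all 35116 windows. Of the 24 tested members with a match, 5 rose, 8 fell and 11 were not called in the comparison described below. Of the 15 tested members without one, 1 rose, 2 fell and 12 were not called. The palindromic core of the gamma-activated sequence, TTCNNNGAA, was found in 12 of the 41 members (29.3%) and in 9.38% of all genes. Of its 11 tested members 3 fell, 8 were not called and none of the 11 rose, and of the 28 tested members without it 6 rose and 7 fell. Among all tested genes 21.0% rose and 19.8% fell. Differences between members with and without a match were not tested, and the numbers are small. A match describes letters in these windows and not a bound site. The 160 bases before the start are printed 5′ to 3′ on the gene's own strand. Every match of the interferon-stimulated response element core is in capitals, and reads TTTC, any 2 bases and TTTC where it lies on the other strand. The gamma-activated sequence core is not marked, and DDX60 held it at -124 as TTCCACGAA. HERC5, ISG20, OAS3 and IFI6 rose, GBP1, IFIH1, DDX60 and IFITM3 fell, and SAMD9 and IFIT1 were not called.
HERC5, chr4:88456959-88457118, plus strand: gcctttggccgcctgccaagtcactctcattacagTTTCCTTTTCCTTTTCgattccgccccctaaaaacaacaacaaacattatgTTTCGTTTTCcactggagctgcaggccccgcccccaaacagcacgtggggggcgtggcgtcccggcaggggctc
ISG20, chr15:88638856-88639015, plus strand: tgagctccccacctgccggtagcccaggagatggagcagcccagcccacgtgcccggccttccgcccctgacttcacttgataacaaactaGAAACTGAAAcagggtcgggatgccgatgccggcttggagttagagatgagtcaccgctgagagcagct
OAS3, chr12:112938314-112938473, plus strand: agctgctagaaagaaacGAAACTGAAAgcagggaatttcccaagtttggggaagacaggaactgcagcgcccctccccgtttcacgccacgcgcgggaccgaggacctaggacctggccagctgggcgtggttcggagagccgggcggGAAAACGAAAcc
IFI6, chr1:27672193-27672352, minus strand: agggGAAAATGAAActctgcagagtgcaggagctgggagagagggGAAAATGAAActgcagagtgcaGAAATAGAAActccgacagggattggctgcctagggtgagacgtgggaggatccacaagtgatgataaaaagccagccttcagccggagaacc
GBP1, chr1:89065209-89065368, minus strand: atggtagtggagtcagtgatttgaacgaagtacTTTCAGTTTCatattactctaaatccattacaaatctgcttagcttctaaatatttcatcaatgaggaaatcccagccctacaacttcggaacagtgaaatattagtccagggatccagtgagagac
IFIH1, chr2:162318685-162318844, minus strand: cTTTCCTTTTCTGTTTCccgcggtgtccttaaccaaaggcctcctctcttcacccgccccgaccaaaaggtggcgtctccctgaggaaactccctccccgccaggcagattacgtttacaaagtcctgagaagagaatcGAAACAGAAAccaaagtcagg
DDX60, chr4:168318753-168318912, minus strand: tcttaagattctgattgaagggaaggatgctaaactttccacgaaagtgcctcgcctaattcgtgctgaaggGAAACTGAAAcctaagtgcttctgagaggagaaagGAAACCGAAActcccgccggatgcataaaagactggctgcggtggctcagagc
IFITM3, chr11:320861-321020, minus strand: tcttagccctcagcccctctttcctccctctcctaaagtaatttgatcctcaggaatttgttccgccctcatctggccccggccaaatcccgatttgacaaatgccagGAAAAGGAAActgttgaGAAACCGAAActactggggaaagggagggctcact
SAMD9, chr7:93117980-93118139, minus strand: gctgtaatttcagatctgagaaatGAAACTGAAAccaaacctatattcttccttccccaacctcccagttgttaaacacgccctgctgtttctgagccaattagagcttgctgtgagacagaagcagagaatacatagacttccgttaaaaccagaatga
IFIT1, chr10:89392463-89392622, plus strand: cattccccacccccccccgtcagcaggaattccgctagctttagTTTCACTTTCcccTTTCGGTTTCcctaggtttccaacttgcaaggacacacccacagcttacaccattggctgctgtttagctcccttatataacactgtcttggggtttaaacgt

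HERC5, IFI6 and IFIH1 held 3 matches of the response element core each in these 160 bases, and 2 of those in HERC5 and in IFIH1 overlap. OAS3, DDX60, IFITM3 and IFIT1 held 2 each, and ISG20, GBP1 and SAMD9 1 each. Every printed stretch held a match, so these examples cannot show whether presence goes with direction. Among them the number of matches did not set apart the members that rose from those that fell: IFI6 with 3 rose and IFIH1 with 3 fell.

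Between the KO-labelled and parental-labelled groups, the genes with the largest falls were the DNA sensor gene IFI16, GBP2, XAF1, CXCL10, GBP1 and MX1, and the largest rises were those of ISG20, HERC5, OASL, HERC6, RSAD2 and IFI6. Of the 53 tested members 24 were called (45.3%, against 40.8% of all tested genes) by edgeR's quasi-likelihood test with a Benjamini-Hochberg adjusted p under 0.05 over all genes. Of these 8 were higher (15.1%, against 21.0% of all genes) and 16 lower (30.2%, against 19.8%). Counts by role group below are to be set beside these shares of all genes, and the role groups are small. The 2 groups did not overlap for 29 members (54.7%), close to the 54.4% among all genes. The median log2 fold change was -0.15 over the tested members and 0.01 over all tested genes. Leaving out 1 library at a time gave 8 or 9 members higher, but the number lower moved between 9, without parental-labelled 2 or 3, and 24, without KO-labelled 3. The share of all tested genes that was lower moved too, being 13.4% and 14.5% without parental-labelled 2 and 3, and 26.0% without KO-labelled 3. The share of all genes that was higher moved between 13.9%, without parental-labelled 2, and 26.6%, without KO-labelled 3. By more than 2-fold, 6 of the 53 members were higher and 6 lower, against 1162 higher and 938 lower of all 17420 tested genes. IFI16 and CXCL10, both among these 6 lower, reached the minimum level for testing only in the parental-labelled group. Of the other 51 members 8 were higher and 14 lower at any fold. A member that is not called is not shown to be equal between groups. All adjusted p-values below are from this edgeR test unless another is named, values in CPM are not scaled by gene length, and ± is the SD over 3 libraries.

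**Figure D1:**
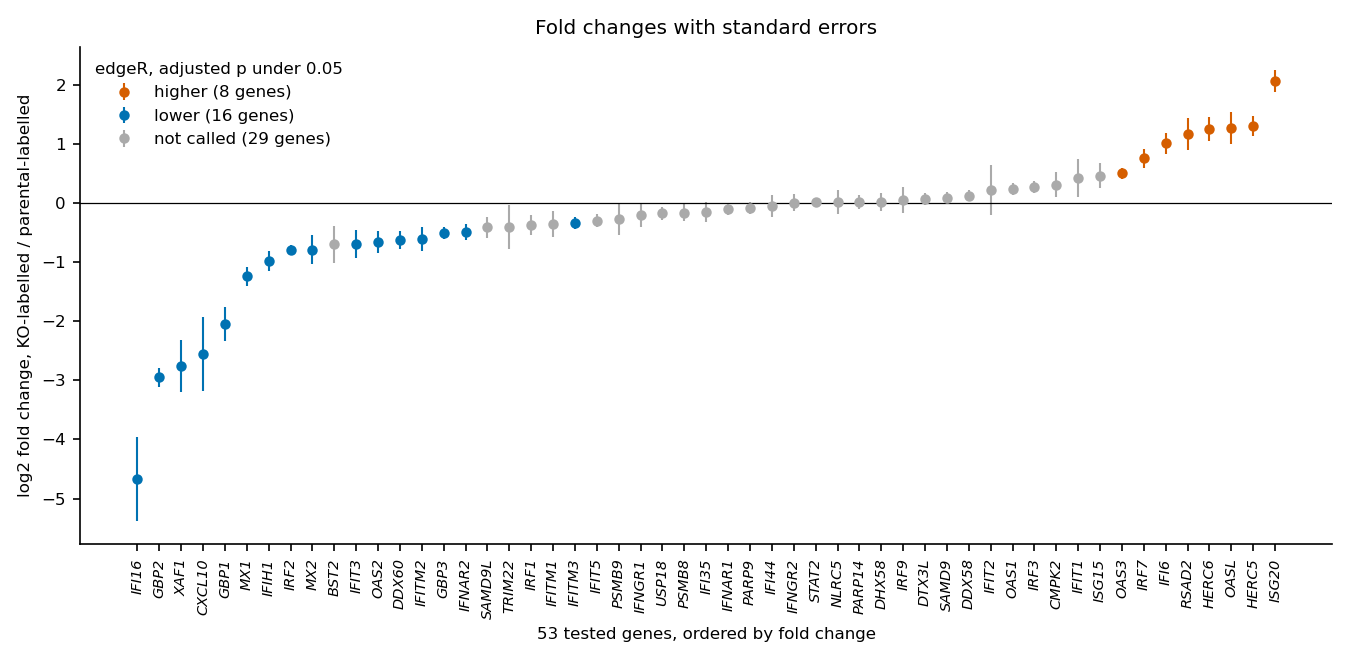
The log2 fold change (KO-labelled over parental-labelled) with its standard error is plotted for the 53 tested genes in order of size. Orange points are the 8 called higher, blue the 16 called lower and grey the 29 not called; ISG20 at 2.07 and IFI16 at -4.67 are the ends.

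**Figure D2:**
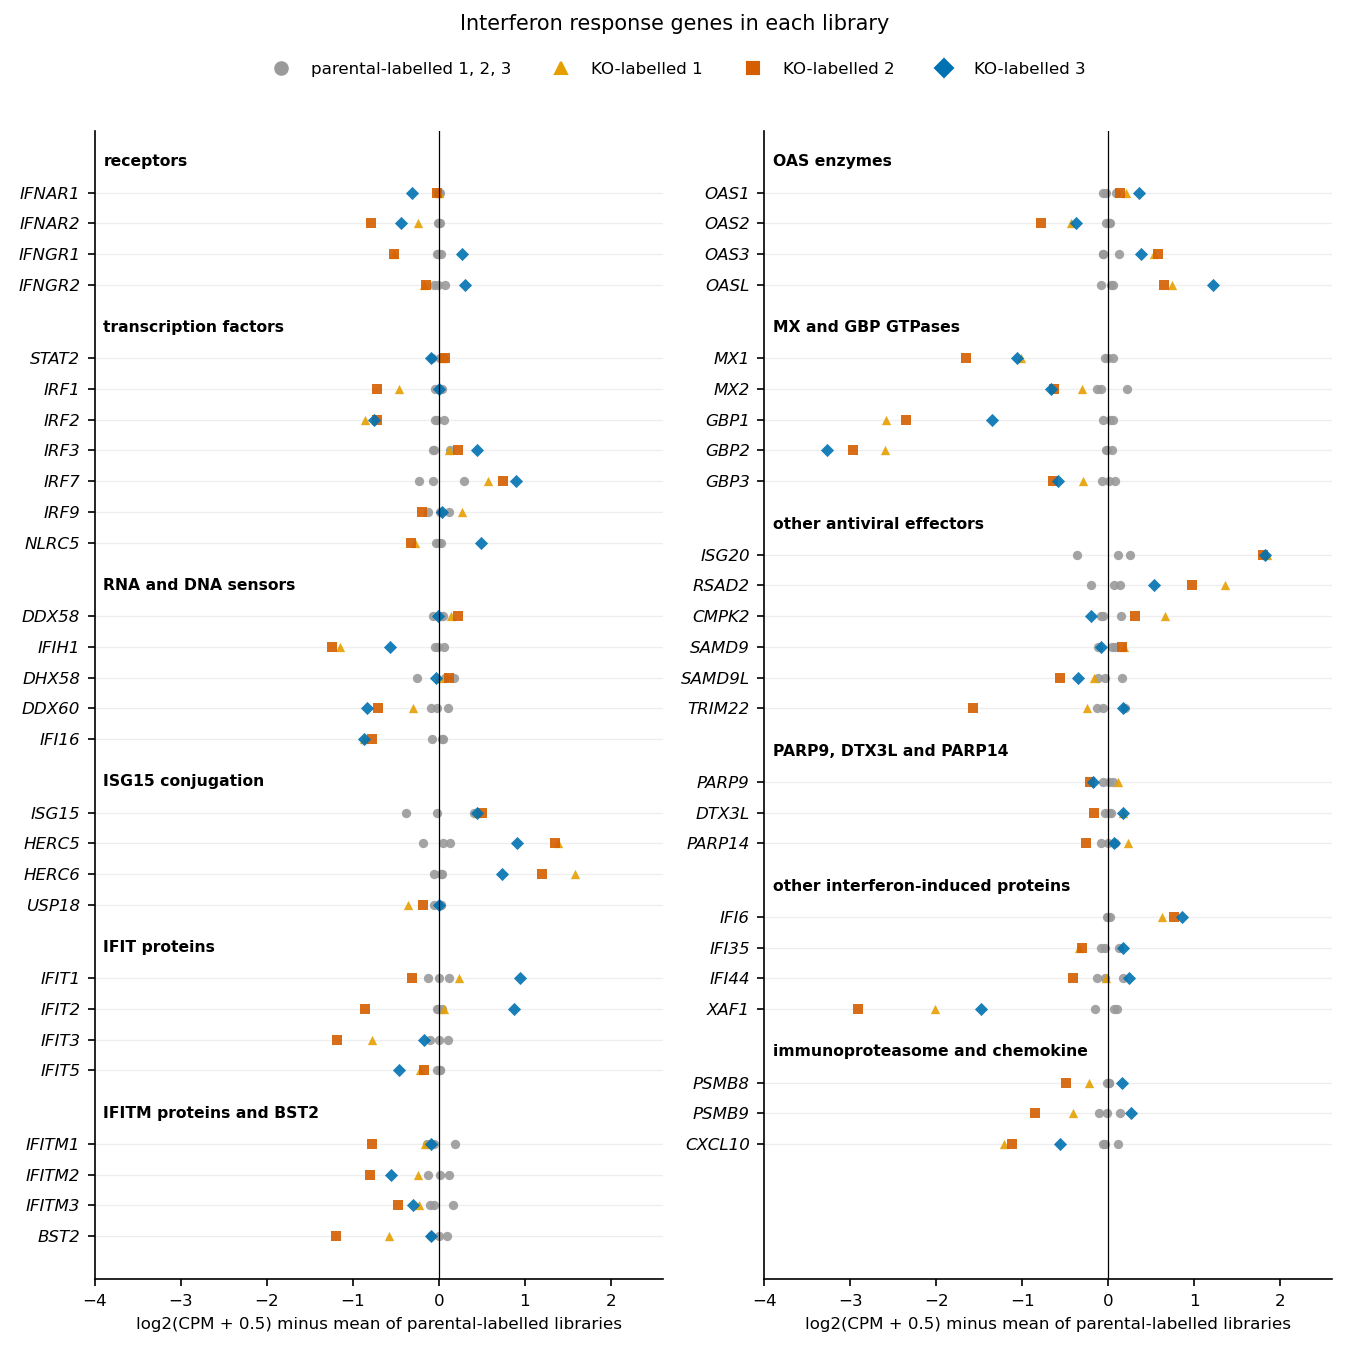
Each point is 1 library, as log2(CPM + 0.5) minus the mean of the parental-labelled libraries, for the 53 tested members grouped by role. Grey points cluster at 0, GBP1 and GBP2 lie far to the left in all 3 KO-labelled libraries, and KO-labelled 3 (diamonds) lies to the right of KO-labelled 1 and 2 for IFNGR1, IRF1, NLRC5, IFIT3 and PSMB9.

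Among the 4 receptor chains 1 fell and 3 were not called. IFNAR2, the chain that binds type I interferon tightly, had 30.8, 30.4 and 30.4 CPM in parental-labelled and 25.7, 17.4 and 22.3 CPM in KO-labelled libraries. All 3 KO-labelled values were thus below all parental-labelled ones, with a log2 fold change of -0.49 (SE 0.13, adjusted p = 0.0214). This call was lost when any 1 of the 3 parental-labelled libraries was left out (adjusted p = 0.0617 to 0.0682). Its partner IFNAR1 had 105 ± 0.984 against 97.4 ± 11.4 CPM and IFNGR2, the signalling chain of the interferon gamma receptor, 31.4 ± 1.47 against 31.6 ± 6.26 CPM, neither called. For IFNGR1, the ligand-binding chain for interferon gamma, the parental-labelled values of 181, 185 and 180 CPM lay between 127 and 126 CPM in KO-labelled 1 and 2 and 220 CPM in KO-labelled 3. Its log2 fold change of -0.21 (SE 0.20, adjusted p = 0.443) therefore averages libraries on opposite sides of the parental-labelled level.

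Of 7 transcription factors 1 rose, 1 fell and 5 were not called. IRF2, which can repress interferon-stimulated genes by competing with IRF1, had 26.4, 28.3 and 26.8 CPM against 14.7, 16.3 and 15.9 CPM. The fall was of like size in all 3 KO-labelled libraries, with a log2 fold change of -0.80 (SE 0.09, adjusted p = 2.6e-04). IRF7, the amplifier of type I interferon production, had 6.90, 7.79 and 10.1 CPM against 12.4, 14.04 and 15.6 CPM, so the groups did not overlap. Its log2 fold change was 0.76 (SE 0.16, adjusted p = 0.00696). IRF3, which starts interferon transcription after nucleic acid sensing, had 65.5 ± 5.04 against 78.8 ± 9.33 CPM and was not called (adjusted p = 0.0698), but was called higher without KO-labelled 1 (adjusted p = 0.0424). STAT2 had 47.9 ± 2.29 against 48.3 ± 2.89 CPM and was not called (log2 fold change 0.01, SE 0.08). IRF9 had 1.42 ± 0.161 against 1.48 ± 0.321 CPM. Its deposited FPKM (a level scaled by gene length and library size) gave the other direction, 13.1 ± 1.36 against 10.5 ± 2.17, so no direction is given for IRF9. IRF1, the main interferon gamma-induced activator, had 53.1, 52.01 and 49.99 CPM in parental-labelled libraries and 37.2, 31.3 and 51.7 CPM in KO-labelled 1, 2 and 3. NLRC5, the activator of MHC class I genes, had 28.8 ± 0.561 CPM, and 23.7, 23.0 and 40.7 CPM in KO-labelled 1, 2 and 3. As with IFNGR1, KO-labelled 1 and 2 lay below the parental-labelled range for both genes and KO-labelled 3 did not.

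Nucleic acid sensors held 3 falls, no rise and 2 members not called, where 19.8% of all tested genes fell and 21.0% rose. IFIH1, which encodes the long double-stranded RNA sensor MDA5, had 32.2, 29.8 and 30.5 CPM against 13.6, 12.7 and 20.6 CPM. The log2 fold change was -0.98 (SE 0.17, adjusted p = 0.00293), with KO-labelled 3 nearest to the parental-labelled level. DDX60, a helicase linked to antiviral RNA sensing, had 16.5, 18 and 15.7 CPM against 13.5, 10.04 and 9.10 CPM, with KO-labelled 3 lowest. Its log2 fold change of -0.62 (SE 0.15, adjusted p = 0.0128) was no longer called without parental-labelled 2 (adjusted p = 0.0534) or in the limma test on log2(FPKM + 1) (adjusted p = 0.250). IFI16, a sensor of nuclear DNA, was low throughout, with 11, 11 and 14 counts against 0, 1 and 0. The ratio of these counts scaled to library size was 34.4 (95% counting interval 5.80 to 1398, covering counting error only). The fitted log2 fold change of -4.67 (adjusted p = 7.1e-04) was -6.57 without KO-labelled 2 and is no bound. The RNA sensor RIG-I, listed as DDX58, had 19.8 ± 0.819 against 21.5 ± 1.77 CPM, and its relative DHX58 (LGP2) 5.56 ± 0.909 against 5.63 ± 0.331 CPM. RIG-I and MDA5, which signal through the same adaptor, thus differed in these libraries, the first not being called (adjusted p = 0.328). The difference between the 2 genes was not tested.

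In the ISG15 pathway, where a ubiquitin-like protein is attached to new proteins, 2 of 4 members rose and 2 were not called. HERC5, the main ISG15 ligase in human cells, had 4.32, 5.48 and 5.18 CPM against 13.8, 13.4 and 9.75 CPM. Every KO-labelled value was well above the parental-labelled range, with a log2 fold change of 1.30 (SE 0.17, adjusted p = 6.6e-04). Its neighbour and relative HERC6 had 9.60, 9.73 and 9.07 CPM against 29.3, 22.3 and 16.0 CPM, a log2 fold change of 1.25 (SE 0.20, adjusted p = 0.00200). For both genes KO-labelled 3 was the lowest of the 3 KO-labelled libraries. ISG15 itself had 3.37, 4.49 and 6.20 CPM against 6.37, 6.68 and 6.39 CPM. These groups did not overlap, but parental-labelled 3 came close to the KO-labelled values and the difference was not called (log2 fold change 0.46, SE 0.21, adjusted p = 0.112). Without parental-labelled 3 it was 0.72 and called (adjusted p = 0.0241). USP18, which removes ISG15 and dampens receptor signalling, had 14.6 ± 0.465 against 12.9 ± 1.65 CPM.

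The 4 IFIT genes, a cluster on chromosome 10 whose products bind viral RNA, did not move together. IFIT3 had 10.6, 11.4 and 9.87 CPM against 5.95, 4.38 and 9.32 CPM. Its log2 fold change of -0.69 (SE 0.24) was at the edge of the threshold (adjusted p = 0.0495). That call was lost without any 1 of the libraries other than KO-labelled 3 (adjusted p = 0.0987 to 0.134). IFIT2 had 3.07, 3.18 and 3.05 CPM in parental-labelled libraries and 3.24, 1.49 and 6.11 CPM in KO-labelled ones, so 1 library was far below and 1 far above. IFIT1 had 3.34 ± 0.323 CPM, and 3.99, 2.58 and 6.89 CPM in KO-labelled 1, 2 and 3. For IFIT1, IFIT2 and IFIT3 alike, KO-labelled 2 was the lowest and KO-labelled 3 the highest of the 3. IFIT5 departed from this, with 11.4 ± 0.166 against 9.68, 10.01 and 8.07 CPM, and was not called (adjusted p = 0.0724).

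Of the IFITM genes and BST2, membrane proteins that hold back virus entry or release, 2 fell and 2 were not called. IFITM3, which had the highest level per length of all 55 members, had 147, 151 and 177 CPM against 135, 113 and 128 CPM. The log2 fold change was -0.34 (SE 0.10, adjusted p = 0.0241), a call lost without parental-labelled 2, parental-labelled 3 or KO-labelled 2 (adjusted p = 0.0518 to 0.0776). IFITM2 had 3.003, 3.66 and 3.38 CPM against 2.75, 1.70 and 2.11 CPM, a log2 fold change of -0.61 (SE 0.20, adjusted p = 0.0410) that was not called without any 1 of the parental-labelled libraries or KO-labelled 2 (adjusted p = 0.0700 to 0.131). IFITM1 had 4.95 ± 0.662 against 3.86 ± 1.06 CPM (adjusted p = 0.222). The 3 genes are neighbours on chromosome 11 with nearly the same coding sequence, and reads shared between them may be left out of a table of unique counts, so their separate values are uncertain. BST2, or tetherin, had 2.44, 2.62 and 2.25 CPM, and 1.47, 0.778 and 2.25 CPM in KO-labelled 1, 2 and 3, the last level with the lowest parental-labelled value, and was not called (adjusted p = 0.113).

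Each of the OAS genes, whose products make the 2-5A signal that activates RNase L, had groups that did not overlap, as did 54.4% of all tested genes. The OAS genes split in direction. OAS3 had 35.0, 30.9 and 30.9 CPM against 46.6, 48.4 and 42.0 CPM, a log2 fold change of 0.50 (SE 0.09, adjusted p = 0.00323). OASL, which lacks the enzyme activity and binds RIG-I, had 0.792, 0.675 and 0.772 CPM against 1.58, 1.45 and 2.39 CPM (log2 fold change 1.27, SE 0.27, adjusted p = 0.00646). OAS2 went the other way, with 2.41, 2.38 and 2.31 CPM against 1.62, 1.17 and 1.71 CPM. Its log2 fold change was -0.66 (SE 0.19, adjusted p = 0.0252), and the call was lost without any 1 of the parental-labelled libraries or KO-labelled 2 (adjusted p = 0.0644 to 0.0824). OAS1 had 18.1 ± 0.987 against 21.4 ± 1.71 CPM and was not called (adjusted p = 0.0853). OAS1, OAS3 and OAS2 lie side by side on chromosome 12, so OAS2 fell next to OAS3, which rose.

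All 5 dynamin-like and guanylate-binding GTPases fell, against 19.8% of all tested genes. This was the only role group in which every member was called, although the call of MX2 was not stable. The role groups were drawn with earlier results of these data known, so this count may reflect the grouping and is no separate support. GBP2, an interferon gamma-induced protein of vacuole and membrane defence, had 194, 184 and 185 CPM in parental-labelled and 30.6, 23.5 and 18.9 CPM in KO-labelled libraries. This was a 7.70-fold fall, with a log2 fold change of -2.95 (SE 0.16, adjusted p = 1.1e-05), and the smallest p among the members. GBP1, its neighbour with a like role, had 42.5, 43.5 and 40.1 CPM against 6.56, 7.85 and 16.2 CPM. KO-labelled 3 was the highest of the KO-labelled libraries but below all parental-labelled values, and the log2 fold change was -2.04 (SE 0.29, adjusted p = 9.7e-04). GBP3 had 57.8, 60.7 and 54.7 CPM against 47.1, 36.8 and 38.2 CPM, a smaller log2 fold change of -0.50 (SE 0.11, adjusted p = 0.00651). MX1, which blocks the replication of many RNA viruses, had 50.8, 51.9 and 54.0 CPM against 25.5, 16.2 and 24.7 CPM, a log2 fold change of -1.24 (SE 0.16, adjusted p = 6.1e-04). Its neighbour MX2 had 1.25, 1.31 and 1.74 CPM against 1.06, 0.743 and 0.714 CPM (log2 fold change -0.79, SE 0.25, adjusted p = 0.0356). The MX2 call was lost without any 1 of the libraries other than KO-labelled 1 (adjusted p = 0.0588 to 0.126). The direction of MX2 reversed in the FPKM table, with 0.581 ± 0.114 against 0.607 ± 0.121 FPKM, so its fall rests on the count table.

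**Figure D3:**
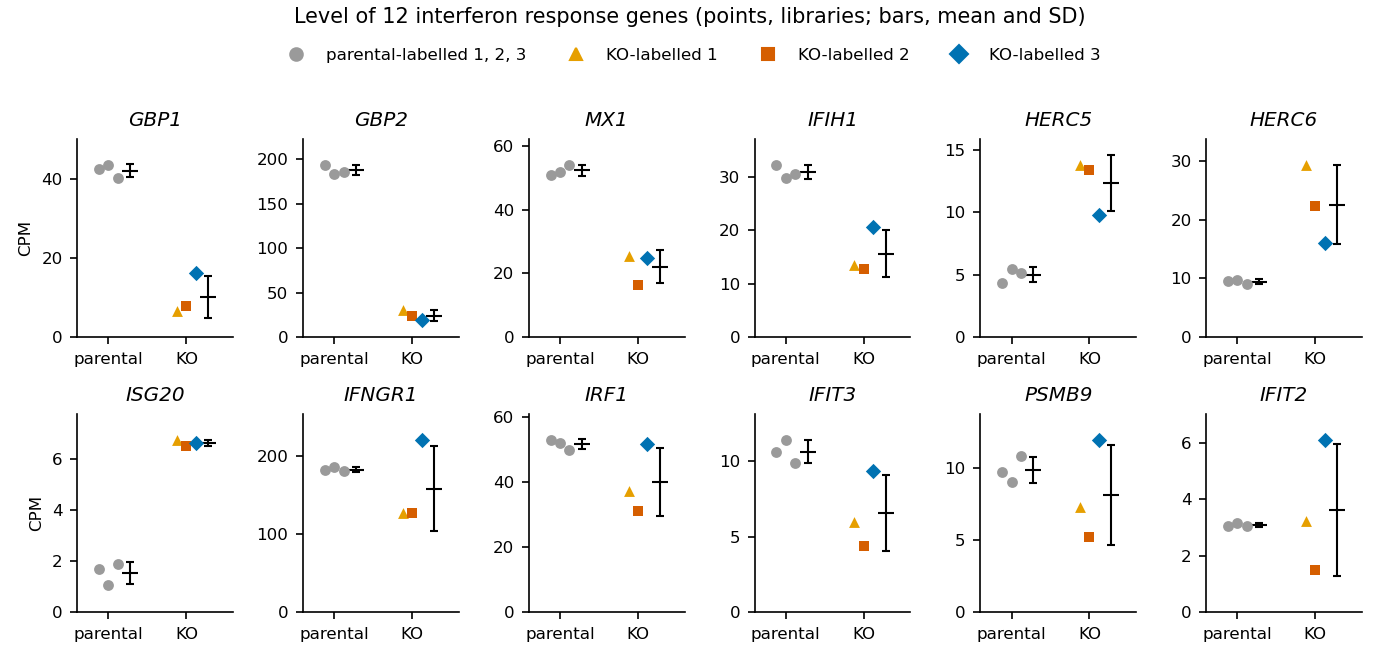
The level in CPM is plotted for 12 members, with 1 point per library and the mean and SD of each group beside the points; every axis starts at 0. GBP1, GBP2, MX1 and IFIH1 are lower and HERC5, HERC6 and ISG20 higher in all 3 KO-labelled libraries, while for IFNGR1, PSMB9 and IFIT2 the KO-labelled libraries fall on both sides of the parental-labelled ones.

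Among 6 other antiviral effectors 2 rose and 4 were not called. ISG20, an exonuclease that degrades viral RNA, had 1.68, 1.07 and 1.90 CPM against 6.74, 6.51 and 6.61 CPM. The 3 KO-labelled values were nearly equal, and the 4.20-fold rise was the largest among the members (log2 fold change 2.07, SE 0.19, adjusted p = 1.1e-04). RSAD2, or viperin, which makes a chain-terminating nucleotide, had 1.85, 1.35 and 1.74 CPM against 4.97, 3.68 and 2.57 CPM, a log2 fold change of 1.17 (SE 0.27, adjusted p = 0.010). It was not called in the limma test on log2(FPKM + 1) (adjusted p = 0.104). The nucleotide kinase CMPK2, which is its neighbour on chromosome 2, had 9.40, 11.0 and 9.29 CPM, and 15.8, 12.4 and 8.498 CPM in KO-labelled 1, 2 and 3. The order of the 3 KO-labelled libraries was thus the same for the pair, but KO-labelled 3 was below the parental-labelled range for CMPK2 and above it for RSAD2. The growth-restricting genes SAMD9 and SAMD9L had 34.5 ± 2.52 against 36.7 ± 3.58 CPM and 3.45 ± 0.400 against 2.58 ± 0.429 CPM. TRIM22, a ubiquitin ligase that restricts viruses, had 13.0 ± 1.66 CPM, and 10.8, 4.03 and 14.6 CPM in KO-labelled 1, 2 and 3.

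PARP9, DTX3L and PARP14, partner enzymes of ADP-ribose signalling that lie together on chromosome 3, all stayed within a narrow range of log2 fold changes. PARP9 had 62.8 ± 2.52 against 59.1 ± 7.55 CPM, DTX3L 87.3 ± 2.05 against 91.3 ± 11.9 CPM and PARP14 117 ± 6.66 against 119 ± 19.97 CPM. The log2 fold changes lay between -0.09 and 0.06, and none of the 3 was called in either direction. In each, KO-labelled 2 was the lowest of the 6 libraries.

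Of the 6 other interferon-induced genes 1 rose, 1 fell, 2 were not called and 2 had too few counts to be tested. XAF1, a pro-apoptotic antagonist of the inhibitor XIAP, had 4.09, 3.97 and 3.34 CPM against 0.565, 0.0707 and 1.04 CPM. KO-labelled 2 held only 2 counts, and the log2 fold change was -2.76 (SE 0.44, adjusted p = 0.00173), or -3.59 without KO-labelled 3. IFI6, a mitochondrial and endoplasmic reticulum protein that limits apoptosis, had 1.02, 0.993 and 0.997 CPM against 1.81, 2.05 and 2.21 CPM. Its log2 fold change was 1.01 (SE 0.18, adjusted p = 0.00326), with all KO-labelled values above all parental-labelled ones. IFI35 and IFI44 had 7.94 ± 0.678 against 7.14 ± 1.61 CPM and 7.58 ± 0.869 against 7.32 ± 1.73 CPM. IFI27 had 3, 3 and 9 counts against 2, 5 and 11, whereas its deposited FPKM went from 0.690 ± 0.0870 to 0.202 ± 0.134, and limma called it lower on log2(FPKM + 1). The 2 tables thus disagree on IFI27, and no direction is given. IFI44L had 3, 3 and 4 counts against 17, 3 and 5.

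The immunoproteasome subunits and CXCL10 are classical interferon gamma targets. PSMB8 had 86.7, 85.8 and 87.0 CPM against 73.9, 61.5 and 96.4 CPM, and PSMB9 9.70, 9.06 and 10.9 CPM against 7.27, 5.23 and 12.0 CPM. In both, KO-labelled 1 and 2 were below and KO-labelled 3 above all parental-labelled values, and neither was called (adjusted p = 0.404 and 0.436). CXCL10, a chemokine for T cells, had 19 counts in each parental-labelled library and 0, 1 and 8 in KO-labelled 1, 2 and 3. Its fitted log2 fold change of -2.55 (SE 0.62, adjusted p = 0.0126) was -4.87 without KO-labelled 3.

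The 3 KO-labelled libraries differed in how many members lay outside the parental-labelled range. Of the 53 tested members KO-labelled 1 was below all 3 parental-labelled libraries for 29 (54.7%, against 41.8% of all tested genes) and above them for 19 (35.8%, against 42.3%). KO-labelled 2 was below for 37 (69.8%, against 41.8%) and above for 15 (28.3%, against 42.4%). KO-labelled 3 was below for 23 (43.4%, against 42.0%) and above for 21 (39.6%, against 41.4%), close to the shares among all genes. Both KO-labelled 1 and 2, but not 3, were below the parental-labelled range for 10 members (18.9%, against 7.57%), which were IFNGR1, IFNGR2, IRF1, NLRC5, USP18, IFITM1, TRIM22, IFI35, PSMB8 and PSMB9. The opposite pattern, above in 1 and 2 only, was seen for 3 members (5.66%, against 7.41%). KO-labelled 2 and 3, but not 1, were below for 2 members (3.77%, against 3.82%), and KO-labelled 1 and 3, but not 2, for none of the 53 (against 3.07%). KO-labelled 2 was below the range alone for 6 members (11.3%, against 3.35%), which were IRF9, IFIT1, IFIT2, PARP14, DTX3L and IFI44, none of which was called. KO-labelled 3 was below alone for 2 members (3.77%, against 8.04%) and KO-labelled 1 for none of the 53 (against 4.10%). The median of log2(CPM + 0.5) minus the parental-labelled mean was -0.17, -0.32 and -0.0058 over the members in KO-labelled 1, 2 and 3. This median is signed, so rises and falls cancel in it, and it does not measure how far a library lay from the parental-labelled level. KO-labelled 3 was within the parental-labelled range for only 9 of the 53 members, against 16.6% of all tested genes.

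**Figure D4:**
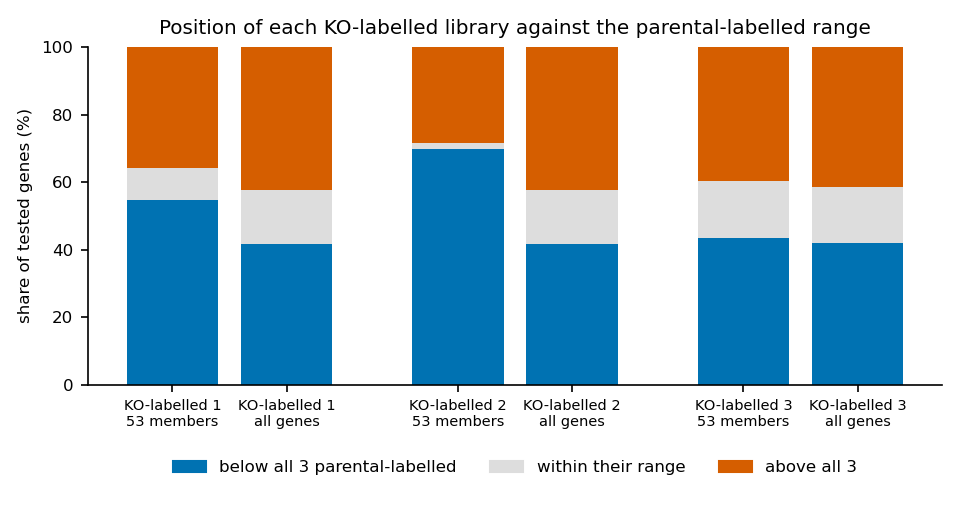
Bars give the share of tested genes for which a KO-labelled library was below, within or above the range of the 3 parental-labelled libraries, for the 53 members and for all 17420 tested genes. KO-labelled 2 was below for 69.8% of members against 41.8% of all genes, while KO-labelled 3 had nearly the shares of all genes.

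When KO-labelled 3 was left out, 24 members were lower (45.3%, against 26.0% of all genes in that fit) and 9 higher (17.0%, against 26.6%). Among members not called with all 6 libraries, BST2, IFI35, IFNGR1, IRF1, NLRC5, PSMB8, PSMB9, TRIM22 and USP18 were then called lower and CMPK2 higher. The log2 fold change was -0.53 for IFNGR1 (SE 0.05, adjusted p = 3.5e-05), -0.60 for IRF1 (SE 0.08, adjusted p = 2.8e-04), -0.67 for PSMB9 (SE 0.15, adjusted p = 0.00483) and -0.31 for NLRC5 (SE 0.07, adjusted p = 0.00592). IFIT3 was at -1.04 (adjusted p = 2.5e-04) and MX2 was no longer called (adjusted p = 0.0588). IFNGR1, IRF1, NLRC5, USP18, TRIM22, IFI35, PSMB8 and PSMB9 were listed above because KO-labelled 1 and 2, but not 3, lay below the parental-labelled range. CMPK2 lay above that range in KO-labelled 1 and 2 only. The calls of all these genes without KO-labelled 3 restate those patterns and are no separate support for them. GBP2 differed from the genes that were low in KO-labelled 1 and 2 only, being lowest in KO-labelled 3, at 18.9 CPM. Of the 2 tested leukocyte markers CSF1R was, like IFNGR1, lower in KO-labelled 1 and 2 only. CSF1R had 10.1 to 10.9 CPM in parental-labelled libraries and 3.88, 4.24 and 13.0 CPM in KO-labelled 1, 2 and 3. The other, CD14, was lower in all 3 KO-labelled libraries and lowest in KO-labelled 3. CD14 had 27.1 to 36.8 CPM in parental-labelled libraries and 4.03, 3.89 and 2.43 CPM in KO-labelled 1, 2 and 3. The difference between KO-labelled 3 and the others rests on 1 library and was not tested.

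Neighbouring tested genes were compared with the members, using gene order from RefSeq (GRCh38.p14), a later build than the hg19 named in the submitters' processing notes. For each locus the 5 nearest tested genes on either side, and any lying between members, were taken. Their counts are to be set beside all tested genes, of which 40.8% were called, 21.0% higher and 19.8% lower. Around the tested guanylate-binding genes on chromosome 1, GBP3, GBP1, GBP2 and GBP4 were all lower. Of 11 neighbours 2 were lower, 1 higher and 8 not called, with a median log2 fold change of -0.05. GBP5, from the second list described below, had too few counts to be tested. Its counts overlapped between groups, with 7, 15 and 8 in parental-labelled and 7, 13 and 3 in KO-labelled libraries. GBP4 reached the minimum level for testing only in the parental-labelled group. It had 13 counts in each parental-labelled library and 1, 0 and 0 in the KO-labelled ones, a ratio of 37.3 (95% counting interval 6.31 to 1511), and its fitted log2 fold change was -4.79, or -6.70 without KO-labelled 1. The pseudogene PTGES3P1, which lies between GBP1 and GBP2, had a log2 fold change of 0.02 and was not called. HERC6 and HERC5 rose beside PPM1K, a mitochondrial phosphatase gene (log2 fold change 1.71), but of their 10 neighbours 2 were higher, 3 lower and 5 not called. For XAF1 the 10 neighbours had a median log2 fold change of 0.08, with 3 higher and 1 lower.

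At the loci of ISG20, IRF2 and RSAD2 most of the neighbours were called as well, against 40.8% of all tested genes. ISG20 on chromosome 15 lay among 10 neighbours of which 9 were higher and 1 lower, with a median log2 fold change of 0.95 against 2.07 for ISG20. IRF2 on chromosome 4 had 9 of 10 neighbours lower and 1 not called, at a median of -0.61 against -0.80 for IRF2. RSAD2 and CMPK2 on chromosome 2 had 8 of 10 neighbours higher and 2 not called, at a median of 0.62, RSAD2 being called higher and CMPK2 not called. Around IFIH1 fewer neighbours were called, with 3 of 10 lower and 7 not called, at a median of -0.50. Around the receptor genes IFNAR2, IFNAR1 and IFNGR2 on chromosome 21, 5 of 11 neighbours were lower and 6 not called, at a median of -0.27, while of these members IFNAR2 alone was called. The part of these neighbourhoods in the members' values was not tested.

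**Figure D5:**
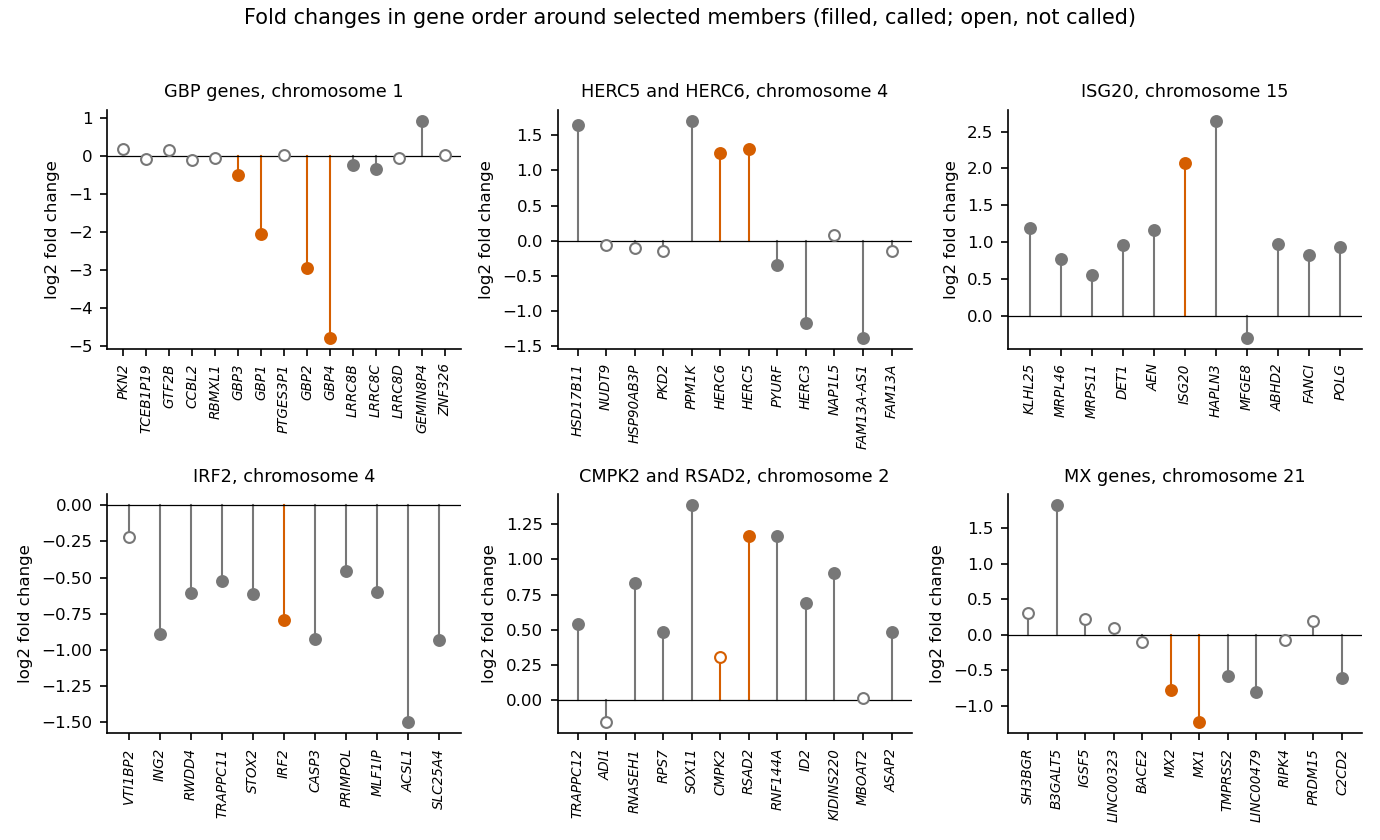
Log2 fold change is plotted for tested genes in their order along the chromosome around 6 loci, with interferon response genes in orange, neighbours in grey, filled points called and open points not called. The tested GBP genes fall among neighbours with a median near 0, whereas ISG20 and IRF2 lie in runs of neighbours that were higher (9 of 10) and lower (9 of 10).

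Levels per length, in FPKM, put IFITM3 first in both groups, with 210 ± 22.1 in parental-labelled and 172 ± 15.2 in KO-labelled libraries. IFNGR1 (82.9 ± 1.55 FPKM), GBP2 (70.8 ± 4.54), PSMB8 (68.5 ± 1.81) and IRF3 (43.0 ± 5.46) followed in the parental-labelled group. GBP2 and PSMB8 did not differ beyond their spread there. In the KO-labelled group GBP2 was at rank 19 of 55, with 9.43 ± 2.37 FPKM, and MX1 went from rank 11 to rank 20. IFIT2, OAS2, SAMD9L, MX2, IFI27, CXCL10, OASL, IFI16 and IFI44L were each under 1 FPKM in the mean of both groups. The 2 tables differed for IRF9, which was at 13.1 FPKM with only 36 to 49 counts in parental-labelled libraries.

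Further genes of the pathway were taken from a second list of 99 names, of which 84 had a row in the count table and 69 were tested. Of the 69, 14 were higher (20.3%, against 21.0% of all tested genes), 17 lower (24.6%, against 19.8%) and 38 not called, with a median log2 fold change of -0.01, against 0.01 over all tested genes. The number higher was 8 or 9 without 1 of the parental-labelled libraries, and the number lower was 11 without parental-labelled 2. Of all tested genes 13.9% to 15.1% were higher without 1 of those libraries, and 13.4% were lower without parental-labelled 2. GBP4, 1 of the 17 lower, and TYMP, not called, reached the minimum level for testing only in the parental-labelled group. Of the interferon ligands listed, only IFNE and IFNA5 had a row, so the others were not analysed here. IFNE had 12 counts in all parental-labelled and 34 in all KO-labelled libraries, and IFNA5 had 0 and 2. Of 7 tested receptor, kinase and STAT genes 1 was higher (14.3%, against 21.0% of all tested genes), 5 lower (71.4%, against 19.8%) and 1 not called. The kinase JAK2, which serves the interferon gamma receptor, went from 27.7 ± 2.82 to 16.2 ± 0.548 CPM (log2 fold change -0.77, SE 0.10, adjusted p = 6.5e-04), JAK1 from 288 ± 10.5 to 231 ± 15.3 CPM (-0.32, SE 0.07) and STAT3 from 407 ± 4.41 to 256 ± 34.1 CPM (-0.67, SE 0.10). TYK2, a type I receptor kinase, rose from 292 ± 17.8 to 378 ± 49.6 CPM (0.37, SE 0.10, adjusted p = 0.0219). The TYK2 call was lost without parental-labelled 1 or 2 or KO-labelled 1 or 2 (adjusted p = 0.0615 to 0.0932).

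Downstream of the RNA sensors 3 of 10 tested adaptors and kinases were higher (30%, against 21.0% of all tested genes), 1 lower (10%, against 19.8%) and 6 not called. MAVS, the mitochondrial adaptor of RIG-I and MDA5, fell from 109 ± 3.34 to 72.1 ± 2.42 CPM (log2 fold change -0.59, SE 0.07, adjusted p = 3.0e-04). The kinase IKBKE was at 0.44 (SE 0.12), the Toll-like receptor adaptor MYD88 at 0.32 (SE 0.09) and TRAF3 at 0.27 (SE 0.09). Each of these 3 calls was lost without any 1 parental-labelled library, that of MYD88 also without KO-labelled 1 and that of TRAF3 without any 1 library (adjusted p = 0.0506 to 0.181 over all of these). The DNA sensor cGAS, listed as MB21D1, had 1, 3 and 5 counts against 44, 42 and 9 and did not pass the minimum level for testing. Among 6 negative regulators SOCS1, a feedback inhibitor of Janus kinases, rose from 0.821 ± 0.194 to 1.69 ± 0.259 CPM (log2 fold change 1.02, SE 0.24, adjusted p = 0.0105). The phosphatase gene PTPN11 was at -0.21 (SE 0.07, adjusted p = 0.0471), a call lost without any 1 parental-labelled library or KO-labelled 1 (adjusted p = 0.0526 to 0.172), and the other 4 were not called.

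Of 46 further tested interferon-stimulated genes 9 were higher (19.6%) and 10 lower (21.7%), near the shares of all tested genes, and 27 were not called. The 10 lower include GBP4, which reached the minimum level for testing only in the parental-labelled group. HELZ2, a helicase coactivator, rose from 17.4 ± 2.68 to 40.9 ± 5.69 CPM (log2 fold change 1.23, SE 0.14, adjusted p = 3.7e-04), the nuclear body gene PML from 28.9 ± 2.13 to 49.8 ± 4.73 CPM (0.79, SE 0.10) and the ubiquitin ligase RNF213 from 280 ± 16.5 to 392 ± 25.9 CPM (0.49, SE 0.08). In the opposite direction LY6E, a surface protein that limits coronavirus entry, fell from 276 ± 25.1 to 111 ± 22.4 CPM (-1.32, SE 0.15, adjusted p = 2.9e-04), the transcription factor ETV7 from 5.04 ± 0.525 to 1.53 ± 0.171 CPM (-1.71, SE 0.17) and TDRD7 from 31.6 ± 1.09 to 18 ± 0.447 CPM (-0.81, SE 0.08).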

How the data were processed

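Polyadenylated RNA of 6 MDA-MB-468 cultures was made into directional libraries, per the labels' protocols. The authors deposited raw counts per gene symbol and FPKM values, 1 column per sample. The build hg19 and the tools Cufflinks 2.0.2, SAMtools 0.1.19 and STAR 2.4.0f1 are listed in the submitters' processing notes, and the deposited count table is named as one of unique counts. Which tool did what, which annotation was used and whether counting used strand is not given in the sources used here.

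Counts were filtered with filterByExpr (minimum count 10, minimum total 15), scaled by TMM and tested with edgeR 4.0.16 in R 4.3.3 (quasi-likelihood, current form, no covariate, all 6 libraries), with Benjamini-Hochberg adjustment over 17420 genes. The SE is the log2 fold change divided by the square root of F. Samples were grouped by genotype label. No pairing between wells and populations is labelled. Of the tested genes, those matched to RefSeq by symbol or synonym gave the gene order. Alternatives used DESeq2 1.42.0 and limma 3.58.1. FPKM tests used genes with at least 0.5 FPKM in 3 libraries. The fits were checked on simulated counts.

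Members, lists, roles and motifs were chosen with earlier results of these data known. Per-library CPM is given for every called member with a mean of at least 1 CPM in a group. From the pathway list, the called genes with the smallest p, up to 3 per role and direction, are named, and JAK1, JAK2 and TYK2; 1 further gene of that list is not reported here. GBP4, GBP5, TYMP, IFNE, IFNA5, MB21D1 and PPM1K, PTGES3P1, CD14 and CSF1R were named after their values were seen.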

Additional observations from a re-analysis of the deposited data

How the results depend on the processing

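Precision is limited by 3 libraries per group and, below about 1 CPM, by few counts. The main values were 8 members higher, 16 lower, 7105 of all genes called, and 14 higher and 17 lower in the pathway list. Requiring more than a 1.5-fold change (glmTreat) gave 3, 7, 1923, 1 and 4. With limma on log2(FPKM + 1), 9 members were lower, and 8 pathway genes higher and 11 lower. With a pseudocount of 0.1 these were 9, 8 and 10. With no FPKM filter there were 5 members higher and 10 lower, 4507 genes called, and 5 pathway genes higher and 9 lower. Leaving out 1 library at a time gave 8 to 9 members higher, 9 to 24 lower, 4879 to 9367 genes, and 8 to 15 pathway genes higher and 11 to 22 lower. The cause was not tested.

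Directions reversed for MX2 among the called members and otherwise in uncalled ones. The log2 fold change of MX2 was 0.024 with FPKM + 1, with or without a filter, and 0.054 with FPKM + 0.1. IRF9 was at -0.32, -0.34 and -0.32 and DHX58 at -0.0092, -0.0065 and -0.0092 with FPKM + 1, FPKM + 0.1 and no filter. With no filter on counts IFNGR2 was at -0.0078, STAT2 at -0.0050 and NLRC5 at -0.0011. Without parental-labelled 1 and KO-labelled 3 together, an alternative chosen after seeing the data, IFNGR2 was at -0.20, IRF9 at -0.031, NLRC5 at -0.29, DHX58 at -0.074, IFIT1 at -0.043 and IFIT2 at -0.41. With 1 library left out at a time, values ran from -0.17 to 0.090 for IFNGR2, -0.036 to 0.059 for STAT2, -0.11 to 0.20 for IRF9, -0.31 to 0.16 for NLRC5, -0.11 to 0.11 for DHX58, -0.039 to 0.70 for IFIT1, -0.41 to 0.60 for IFIT2, -0.095 to 0.15 for PARP14 and -0.22 to 0.12 for IFI44. GBP1, GBP2, HERC5, IRF2, ISG20, MX1 and XAF1 kept their direction and call in all 16 alternatives, and CXCL10 and IFI16 in the 13 and 12 that gave a value. No paired analysis was possible because the labels number only the parental wells and tie none to a KO-labelled population.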
